A study of Mus musculus with 53 samples.

Results

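The Frizzled receptors of the mouse, Fzd1 to Fzd10, were followed through a model of synovial sarcoma, a soft tissue tumor driven by the fusion protein SS18-SSX. Members were taken by name: a probe set counted as a Frizzled probe set when the array's annotation gave a Frizzled gene as its only symbol. All 10 genes were found, on 21 of 45037 probe sets, in a table that named 17097 genes through 28898 probe sets with 1 symbol each. Fzd3 had 6 probe sets, Fzd2 had 3, Fzd4, Fzd5, Fzd6 and Fzd7 had 2 each, and Fzd1, Fzd8, Fzd9 and Fzd10 had 1 each.

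The 53 Affymetrix GeneChip arrays fell into 9 groups. SS214 tumors (n = 13) grew in nude mice, which lack T cells, from embryonic mesenchymal cells (eMCs) carrying a pMYs retrovirus with human SS18-SSX1 and miR-214, and SS tumors (n = 12) grew from eMCs carrying SS18-SSX1 without the microRNA. The eMCs came from the limbs of late BALB/c embryos, and the tumors formed under the skin and grew into muscle, so that an array of a tumor holds host cells too. A mix of RNA from 10 normal organs stood for normal tissue (n = 4), given as mouse in the labels and as human in the study's methods. Cultured eMCs were measured 48 h after transduction with SS18-SSX1 (n = 4) or with the empty vector (n = 4). SS64 and SS40, each a single line derived from a mouse synovial sarcoma, carried miR-214 or its negative control NC (n = 4 for each of the 4 groups). The labels name the second line SS64, whereas the study's text names it SS60, and the labels were followed. For the cultures, the lines and the mix no label says that arrays came from separate cultures or extracts, so their p-values measure only the spread between arrays, which may be technical. The retrovirus inserts at several places in each tumor's genome, and all groups except the mix and the empty-vector eMCs carry the fusion. The study reports insertions at the Dnm3 locus, where miR-214 lies, in tumors SS18, SS19 and SS23, with raised miR-214, moderate in SS23. It also reports raised miR-214 in several tumors without such insertions. The SS tumors here include those numbers.

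Frizzled proteins cross the membrane many times and bind Wnt ligands through a cysteine-rich domain outside the cell. With the co-receptors Lrp5 and Lrp6 they pass the signal to Dishevelled and stabilise beta-catenin, and with Ror and Ptk7 receptors they act in planar polarity and cell movement without it. By sequence they form the subfamilies Fzd1, Fzd2 and Fzd7; Fzd3 and Fzd6; Fzd5 and Fzd8; and Fzd4, Fzd9 and Fzd10. In humans FZD10 is known as a surface antigen of synovial sarcoma. SS18-SSX is known to be drawn to unmethylated CpG islands, which are stretches of DNA dense in CG.

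Fzd9 and Fzd10, of 1 subfamily, differed in opposite directions between tumors and eMCs, and their promoters are shown for that reason. Both lie on chromosome 5, far from each other. The windows below, from RefSeq (GRCm38.p6), run from 250 bases before each gene's start to 50 after it, with every CG in capitals.
Fzd9, chr5:135250998-135251297, minus strand: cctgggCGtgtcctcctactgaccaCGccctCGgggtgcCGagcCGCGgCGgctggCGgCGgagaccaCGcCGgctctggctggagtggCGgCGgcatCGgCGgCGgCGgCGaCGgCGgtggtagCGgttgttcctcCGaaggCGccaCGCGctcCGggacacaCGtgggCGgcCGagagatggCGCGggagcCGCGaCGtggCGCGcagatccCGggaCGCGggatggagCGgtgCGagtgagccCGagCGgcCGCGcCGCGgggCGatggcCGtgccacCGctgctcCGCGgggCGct
Fzd10, chr5:128600856-128601155, plus strand: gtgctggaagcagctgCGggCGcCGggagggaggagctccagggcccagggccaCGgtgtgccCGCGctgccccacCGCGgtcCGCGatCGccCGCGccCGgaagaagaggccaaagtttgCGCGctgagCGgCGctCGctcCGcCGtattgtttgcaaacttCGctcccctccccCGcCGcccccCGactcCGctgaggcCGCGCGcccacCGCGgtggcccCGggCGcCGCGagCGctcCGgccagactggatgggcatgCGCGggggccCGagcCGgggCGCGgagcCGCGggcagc
Fzd9 had 53 CG in its window and Fzd10 had 45, against a median of 7 over the 32851 promoters of the table. As many CG as in Fzd9 were found in 0.451% of promoters, and as many as in Fzd10 in 1.93%. The table held 6 of the 10 genes, and the others had 38 CG (Fzd5), 32 (Fzd4), 24 (Fzd7) and 16 (Fzd1). The core CTTTGA, by which Tcf and Lef factors bind, stood on either strand of Fzd1 alone of the 6, and on either strand of 16% of all promoters.

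The microRNA of the experiment is given by its mature arms in RefSeq, at chromosome 1, with the seed (bases 2 to 8) in capitals, since the constructs carried miR-214 itself.
mmu-miR-214-5p: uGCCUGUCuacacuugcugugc
mmu-miR-214-3p: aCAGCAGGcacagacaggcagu
Their seeds differ. Sites for them in Frizzled transcripts were not searched, and neither miR-214 nor the human fusion transcript was analysed here on these arrays.

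Values are log2 of the deposited intensity, and values under an intensity of 11.7 (log2 3.55, the floor) were raised to it. Intensities of different probe sets do not share a scale, so levels were compared only across groups for 1 probe set, never between genes. Each gene is headed by the probe set with the highest mean over all arrays, its leading probe set. The words rose and fell mean a Benjamini-Hochberg adjusted p under 0.05 by limma over all probe sets tested in that comparison, and a change is called large when it is also over 2-fold. Overlap of single arrays between groups is described for Frizzled probe sets only. The share of all probe sets without overlap was not counted. Array medians lay between intensities of 22.5 and 26.9. In SS tumors the 3' to 5' log2 ratio of the Gapdh control probe sets, which grows as RNA breaks down, had a mean of 0.85 ± 0.37 (SD, n = 12; 0.33 to 1.43), against 0.06 ± 0.14 in SS214 tumors (n = 13; -0.04 to 0.48) and means between -0.18 and 0.06 in the other 7 groups. The mean level of 8 skeletal muscle markers ranged from 9.54 to 12.93 over SS214 tumors and from 10.11 to 12.63 over SS tumors, and 8 endothelial markers ranged from 4.85 to 6.40 and from 4.90 to 6.30, so the 2 tumor groups overlapped in both. The sarcoma markers Sox2, Tle1 and Bcl2 averaged 8.30 to 9.25 over SS214 tumors and 8.79 to 9.19 over SS tumors, against 6.96 to 7.21 in the mix. In SS40 NC cells the same list averaged 5.99 to 6.15, with Sox2 within 1 log2 unit of the floor on every array. SS40 miR-214 replicate 4 stood apart from the other arrays of its group for several Frizzled probe sets, and results resting on it are given with and without it.

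Fzd10 was highest in the tumors. Its log2 level was 6.42, 6.93 and 7.39 over the 13 SS214 tumors (lowest, median, highest) and 6.41, 7.28 and 7.62 over the 12 SS tumors. The eMCs with SS18-SSX1 gave 5.70, 5.83, 5.51 and 5.72, and the eMCs with empty vector gave 6.09, 5.88, 5.86 and 5.66. Every tumor of either group lay above every eMC array. The mix gave 5.21, 5.21, 5.21 and 4.90, and the 16 arrays of the lines lay between 4.96 and 5.87. Group means of the lines (5.08 to 5.43) lay below those of both eMC groups (5.69 and 5.87), although single arrays overlapped.

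Fzd9, which in the mouse is known for a role in bone-forming cells, ran the other way. The eMCs with SS18-SSX1 gave 7.30, 7.31, 7.29 and 7.38, and the eMCs with empty vector 8.51, 8.47, 8.49 and 8.48. Everywhere else it was low: 4.09, 4.29 and 5.19 over SS214 tumors, 3.70, 4.13 and 4.56 over SS tumors, 4.36 to 4.54 in the mix, and 3.97 to 4.59 over the lines. Those 7 groups overlapped one another and stayed above the floor.

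Fzd4, the receptor of the ligand norrin in blood vessels of the eye and ear, was highest in the tumors too, and the eMCs with SS18-SSX1 overlapped them. Its levels were 6.52, 7.09 and 7.39 over SS214 tumors, and 6.74, 7.09 and 7.98 over SS tumors. They were 6.85, 6.95, 6.80 and 6.63 in eMCs with SS18-SSX1 and 5.89, 6.20, 6.21 and 5.74 in eMCs with empty vector. The mix lay between 5.46 and 5.63, and the lines between 4.35 and 4.73, below every other array.

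**Figure D1:**
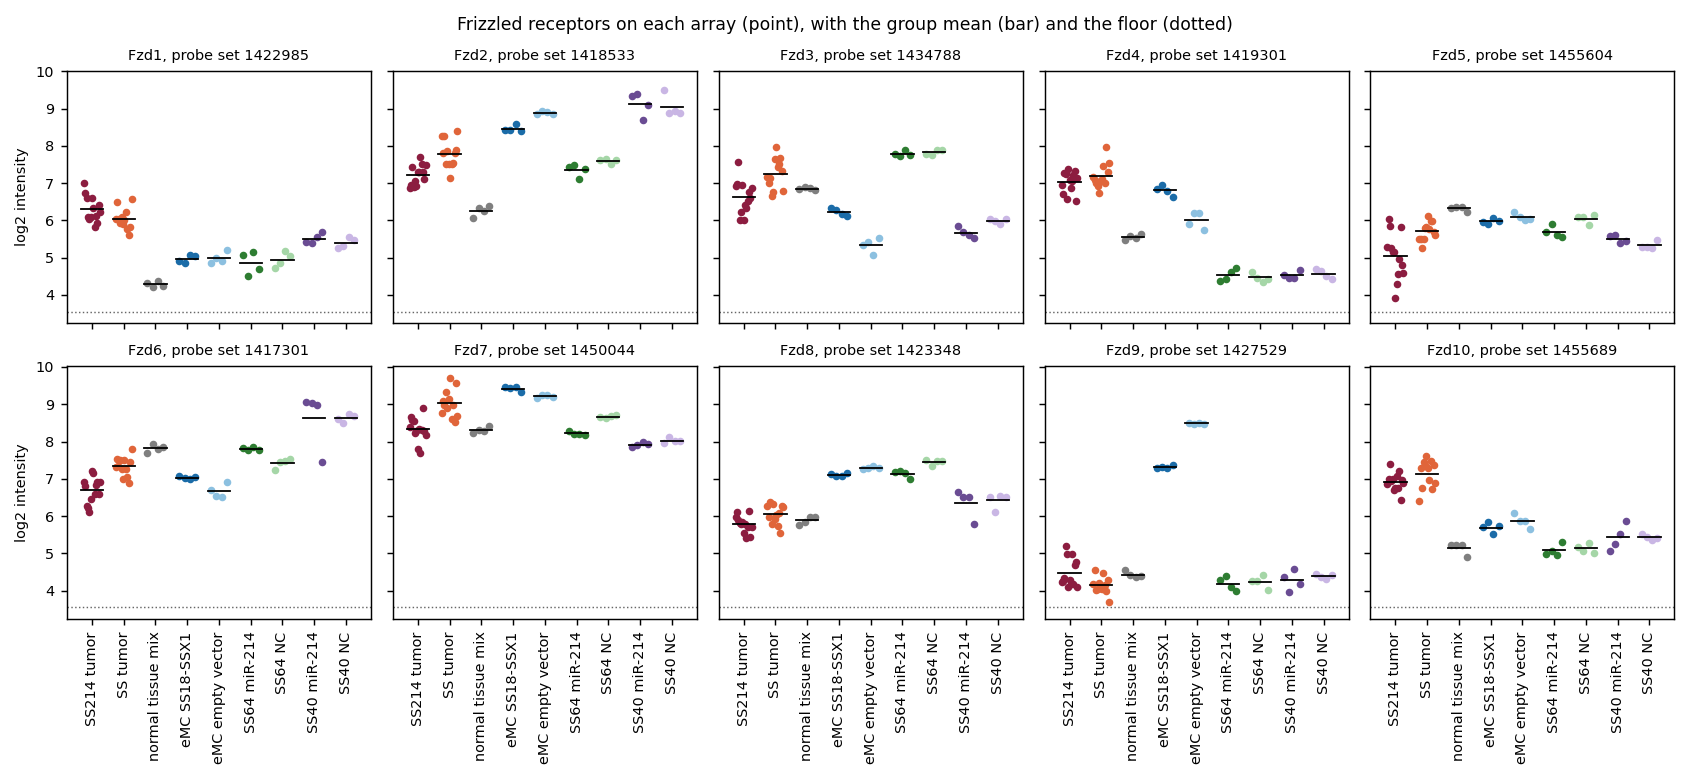
Log2 intensity of the leading probe set of each Frizzled gene (vertical axis) on each of the 53 arrays (points, spread sideways only for sight) in the 9 groups (horizontal axis), with group means as bars and the floor of 3.55 as a dotted line. Fzd10 is highest in the 2 tumor groups, Fzd9 in the 2 eMC groups, and Fzd6 shows the low array of SS40 miR-214 at 7.45.

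Fzd2, a receptor for Wnt5a that is strong in embryonic mesenchyme, was highest in SS40 cells and eMCs. Group means of its leading probe set were 9.13 in SS40 miR-214, 9.05 in SS40 NC, 8.89 in eMCs with empty vector and 8.47 in eMCs with SS18-SSX1. The first 3 of these overlapped, and the eMCs with SS18-SSX1 stood apart from both neighbours in the order. Those of SS tumors (7.79), SS64 NC (7.60), SS64 miR-214 (7.35) and SS214 tumors (7.22) followed, where SS tumors overlapped SS64 NC, and SS64 miR-214 overlapped SS214 tumors, but SS64 NC stood apart from SS64 miR-214. The mix was lowest at 6.25 and stood clear of all other groups. Its probe sets 1418532 and 1418534 followed a similar order, with Pearson's r against the leading probe set of 0.97 and 0.81 over the 9 group means. As its older names include Fzd10, the platform's symbols were used as given and Fzd10 here is the gene of that present name.

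Fzd1 and Fzd7 complete that subfamily. Fzd1 averaged 6.30 ± 0.35 in SS214 tumors (SD, n = 13) and 6.04 ± 0.28 in SS tumors (n = 12), above the highest line group, SS40 miR-214, at 5.51 ± 0.14, which single SS tumors overlapped, with the mix lowest at 4.28 ± 0.07 (n = 4 each). Fzd7, a receptor of embryonic stem cells and gut crypts, had group means from 9.42 in eMCs with SS18-SSX1 to 7.91 in SS40 miR-214.

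Fzd3 and Fzd6 act in planar polarity, Fzd3 in the growth of axons and Fzd6 in the pattern of hair. Fzd3 was highest in SS64 cells, with 7.78, 7.74, 7.89 and 7.75 under miR-214 and 7.79, 7.75, 7.90 and 7.89 under NC. It was lowest in eMCs with empty vector, with 5.33, 5.42, 5.07 and 5.53. Fzd6 was highest in SS40 cells, with a mean of 8.63 under both miR-214 and NC. It was lowest in eMCs with empty vector (6.70, 6.53, 6.52 and 6.91, mean 6.66), which overlapped SS214 tumors (6.11, 6.80 and 7.21, mean 6.69).

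Fzd5 and Fzd8 are known from the developing eye and forebrain. Fzd5 group means ran from 5.05 ± 0.63 in SS214 tumors (n = 13) to 6.32 ± 0.06 in the mix (n = 4), and single SS214 tumors spread from 3.91 to 6.04, overlapping every group but the mix. Fzd8 ran from 5.78 ± 0.22 in SS214 tumors (n = 13) to 7.45 ± 0.07 in SS64 NC (n = 4).

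Probe sets of 1 gene did not always move together. For Fzd3 the leading probe set had r of 0.61, 0.71, 0.45 and 0.21 with probe sets 1421157, 1449730, 1450135 and 1420087 over the 9 group means, and probe set 1438101 lay at the floor on all 53 arrays. Fzd5 (r = 0.06) and Fzd7 (r = -0.29) each had a dim second probe set, with group means spanning only 0.76 and 0.80, and for Fzd4 and Fzd6 the dim probe sets had r of 0.77 and 0.90 with spans of 0.31 and 1.01. These r are descriptions over 9 means from the same arrays.

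**Figure D2:**
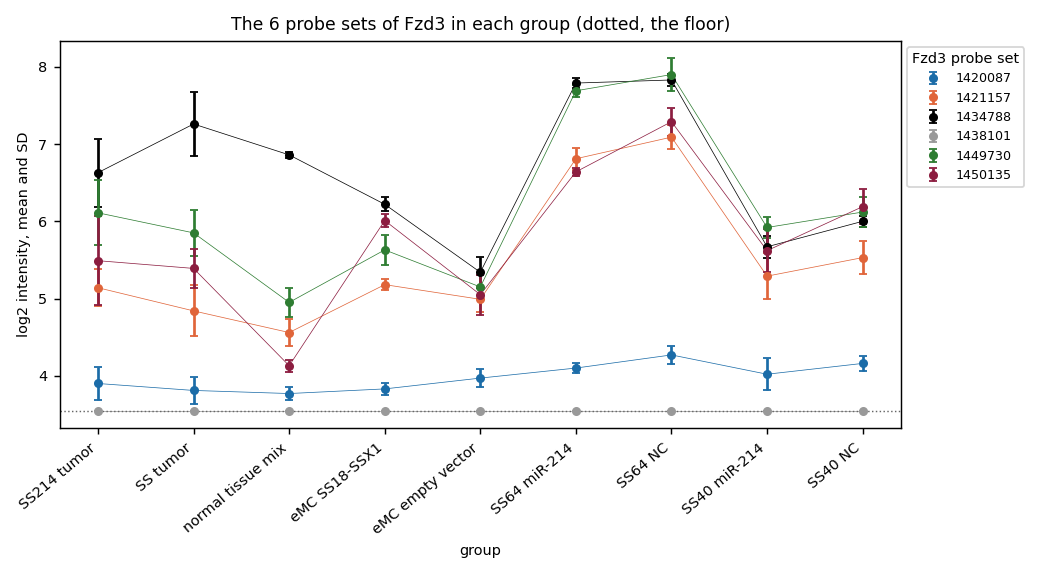
Mean log2 intensity with SD (vertical axis) of the 6 Fzd3 probe sets in the 9 groups (horizontal axis), joined by thin lines as a guide, with the floor dotted. Probe sets 1434788, 1449730, 1421157 and 1450135 are all highest in SS64 cells, but in the mix 1434788 lies at 6.86 and 1450135 at 4.13.

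By the same measure, over 9 group means and 4572 genes whose group means span over 2 log2 units, the genes most like Fzd10 were Mirg (r = 0.986), Nudt17, Hs3st3a1, Dnm3os and Msrb3 (0.977). Dnm3os is the transcript in which miR-214 lies, and Mirg is a microRNA host transcript. Most like Fzd9 were Ucma and Ncmap (both 0.998), Susd5, Panx3 and Matn1 (0.997). Ucma, Panx3 and Matn1 are known from cartilage, and Matn1 is also in the cartilage list used here. The search orders many genes over few points, so high values are common.

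The comparison of eMCs with SS18-SSX1 and eMCs with empty vector asks what changes within 48 h of transduction with the fusion. Fzd9 fell and was the only large Frizzled change: 7.32 ± 0.04 with SS18-SSX1 and 8.49 ± 0.02 with empty vector (SD, n = 4 each). The change was -1.17 on the log2 scale with an SE of 0.040 (adjusted p by limma = 2.83e-12), which is 2.25-fold down. All 6 cartilage markers tested fell in the same cultures (median change -1.14), and their mean level was 10.03 to 10.13 with SS18-SSX1 against 11.26 to 11.30 with empty vector. The part of the cartilage list in the Fzd9 change was not tested, and fewer cells of a kind and less RNA per cell cannot be told apart in bulk RNA.

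Fzd4 and Fzd3 rose in the same comparison. Fzd4 averaged 6.81 ± 0.14 with SS18-SSX1 and 6.01 ± 0.23 with empty vector, a change of 0.80 (SE 0.103, adjusted p = 1.21e-05). Beside it, all 8 endothelial markers rose (median change 1.82), with a mean level of 6.46 to 6.50 against 4.41 to 4.51, and in the empty-vector cells Pecam1, Cdh5, Tek, Emcn and Tie1 were within 1 log2 unit of the floor on every array. Of 8 skeletal muscle markers 7 rose as well (median 0.86). The part of either list in the Fzd4 result was not tested. Tspan12, the partner of Fzd4 in norrin signaling, rose by 1.09 (SE 0.086, adjusted p = 5.75e-08). Leading Fzd3 averaged 6.22 with SS18-SSX1 and 5.34 with empty vector, a change of 0.88 (SE 0.095, adjusted p = 1.65e-06), and probe sets 1449730 and 1450135 rose by 0.48 and 0.96.

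Fzd2 fell on all 3 probe sets, by 0.42, 0.43 and 0.46, without overlap between the groups. Smaller changes of leading probe sets were a rise of Fzd6 (0.37) and Fzd7 (0.20) and a fall of Fzd8 (-0.18). Fzd1 (-0.02), Fzd5 (-0.12) and Fzd10 (-0.18, adjusted p = 0.142) did not pass. Without eMC empty vector replicate 4, Fzd10 passed at -0.25 (adjusted p = 0.0357). With quantile normalization Fzd10 (-0.28, adjusted p = 0.034) and leading Fzd5 (-0.23, adjusted p = 0.023) passed as lower, and Fzd1 (-0.03) did not. The dim Fzd5 1422937 fell without that normalization (-0.28, adjusted p = 0.0205). In all, 8 of 20 probe sets tested were higher and 6 lower, beside 22.8% higher and 18.5% lower over all probe sets, and 1 of 20 was large, beside 2.58%. The median change was -0.03 for the Frizzled probe sets and -0.03 for all. In 1 fit of all arrays, whose spread is shared by the 9 groups, the counts were 3 higher and 2 lower: Fzd9, leading Fzd4 and leading Fzd3 (adjusted p = 1.79e-06, 0.00091 and 0.00422) kept their calls with Fzd3 1450135 and Fzd5 1422937, while 9 others lost theirs, among them all 3 Fzd2 probe sets (adjusted p = 0.0607 to 0.216), Fzd6, Fzd7 and Fzd8.

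Around the receptors, 3 of 19 Wnt ligands tested rose and 3 fell, and of 10 co-receptors 2 rose (Ror1 and Tspan12) and 7 fell. Wnt16 averaged 5.75 with SS18-SSX1 and 4.21 with empty vector (change 1.54, SE 0.133, adjusted p = 1.54e-07). Ror1, a Wnt5a co-receptor, averaged 7.44 and 6.24 (change 1.20, SE 0.057, adjusted p = 1.38e-10). Of 7 target genes 2 rose and 2 fell, with Nkd2, an inhibitor that binds Dishevelled, the large one at 5.73 with SS18-SSX1 and 4.65 with empty vector.

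**Figure D3:**
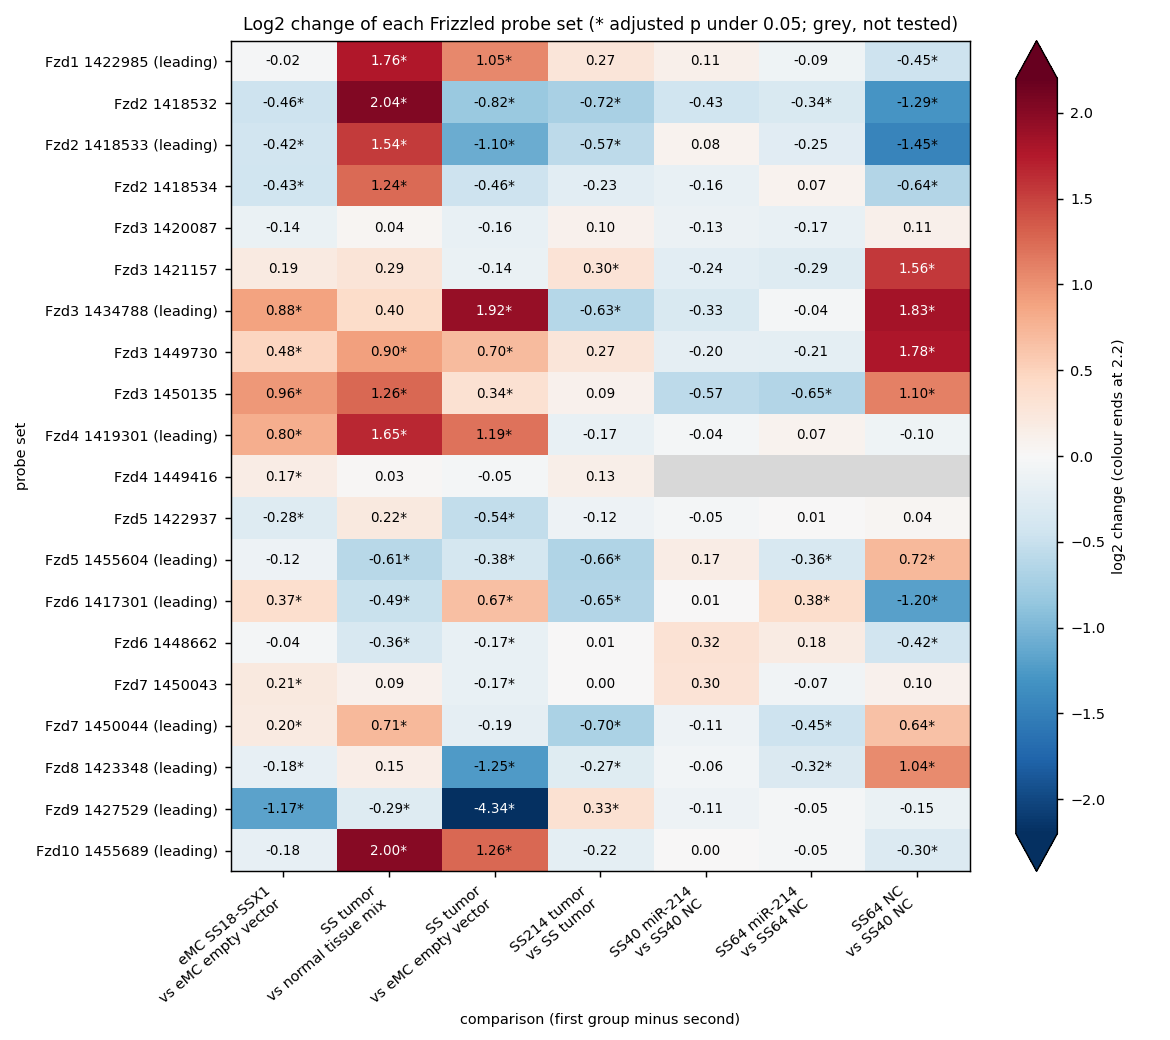
Log2 change (first group minus second; red higher, blue lower, values printed) of the 20 Frizzled probe sets above the floor in each of 7 comparisons (columns), with an asterisk where the adjusted p was under 0.05 and grey where a probe set was not tested. Fzd9 in SS tumors against empty-vector eMCs (-4.34) is the deepest change, and the SS40 miR-214 column has no asterisk.

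SS tumors against empty-vector eMCs compare the grown tumor with cultured cells of the kind it started from. Fzd9 averaged 4.15 ± 0.23 in SS tumors (n = 12) and 8.49 ± 0.02 in the eMCs (n = 4), a change of -4.34 (SE 0.123, adjusted p = 3.51e-15), 20.3-fold down. The 6 cartilage markers all fell with it (median -6.94), and Acan, Col9a1, Col11a2 and Matn1 lay within 1 log2 unit of the floor in every SS tumor. Fzd8 (-1.25, SE 0.137) and Fzd2 (-1.10, SE 0.182) fell over 2-fold as well. Fzd2 probe sets 1418532 (-0.82) and 1418534 (-0.46) fell by under 2-fold, with overlap between the groups.

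Rising over 2-fold were Fzd3 (1.92, SE 0.203), Fzd10 (1.26, SE 0.187), Fzd4 (1.19, SE 0.173) and Fzd1 (1.05, SE 0.150), with adjusted p between 2.4e-07 and 1.35e-05, and no SS tumor overlapped the eMC arrays for any of them. With quantile normalization all 4 passed, but 2 of them, Fzd4 (0.96) and Fzd1 (0.89), were under 2-fold. For Fzd3 that rise was 3.79-fold on the leading probe set, but 1449730 and 1450135 rose by only 0.70 and 0.34, and 1421157 (-0.14) and 1420087 (-0.16) did not pass. The 0.34 lost its call without eMC empty vector replicate 1, 2 or 4 (0.32, 0.38 and 0.24, adjusted p = 0.114, 0.0647 and 0.213). Fzd6 rose by 0.67, Fzd5 fell by 0.38 and Fzd7 (-0.19) did not pass. The Fzd5 call was lost without eMC empty vector replicate 1 (-0.33, adjusted p = 0.074). The dim probe sets Fzd6 1448662 and Fzd7 1450043 fell (-0.17 each, adjusted p = 0.0222 and 0.0293). Both calls were lost without eMC empty vector replicate 3 (adjusted p = 0.0718 and 0.0788). The dim Fzd5 1422937 fell, as its leading probe set did (-0.54).

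With 7 of 20 probe sets higher and 9 lower, the shares stood beside 28.4% higher and 36.1% lower over all probe sets, and 7 of 20 were large, beside 19.2%. Since the Gapdh ratio of SS tumors lay apart from that of the eMCs (0.33 to 1.43 against -0.02 to 0.06), a fit with the ratio as covariate was made: it gave -4.38 for Fzd9, -1.23 for Fzd8, -1.53 for Fzd2, 2.26 for Fzd3, 1.80 for Fzd10, 1.03 for Fzd4 and 1.08 for Fzd1, all still past the threshold, while Fzd5 (-0.12, adjusted p = 0.639) was not. As the ranges did not overlap, the ratio and the group cannot be told apart here, so this fit cannot separate them. In these tumors 7 of 8 endothelial markers and all 8 muscle markers rose, and their part in the Frizzled changes was not tested.

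**Figure D4:**
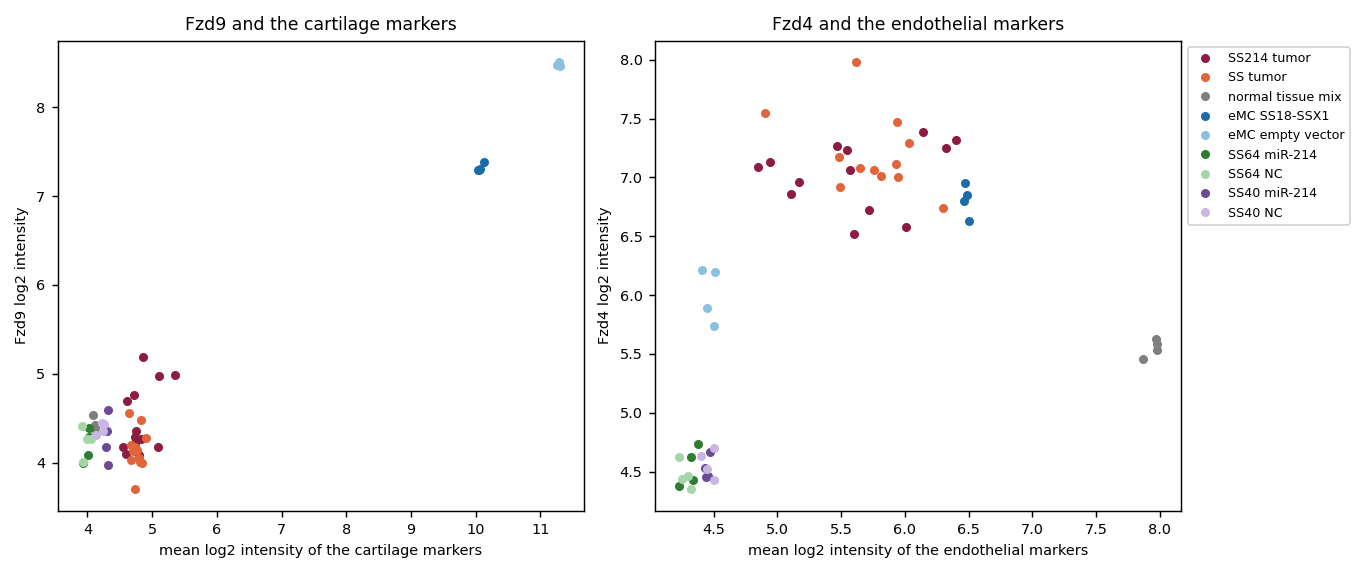
Log2 intensity of Fzd9 against the mean log2 level of 6 cartilage markers (left) and of Fzd4 against 8 endothelial markers (right), 1 point for each of the 53 arrays, coloured by group. The 2 eMC groups stand alone at high Fzd9 and high cartilage level, and the mix has the highest endothelial level (7.87 to 7.98) with Fzd4 at 5.46 to 5.63.

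SS tumors against the normal tissue mix place the tumors beside adult organs. Fzd10 averaged 7.13 ± 0.37 in SS tumors (n = 12) and 5.13 ± 0.15 in the mix (n = 4), a change of 2.00 (SE 0.186, limma, adjusted p = 4.58e-08), which is 4-fold. Fzd1 rose by 1.76 (SE 0.144, adjusted p = 8.51e-09), Fzd4 by 1.65 (SE 0.165, adjusted p = 1.24e-07) and Fzd2 by 1.54 (SE 0.187, adjusted p = 1.45e-06). In each of these 4 genes every SS tumor lay above every mix array. Fzd7 rose by 0.71.

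All 8 endothelial markers were lower in SS tumors than in the mix (median change -2.24), and their part in the Fzd4 result was not tested. Fzd3 changed by 0.40 on its leading probe set (adjusted p = 0.0952), while 1449730 and 1450135 rose by 0.90 and 1.26. Fzd5 (-0.61), Fzd6 (-0.49) and Fzd9 (-0.29) fell, and Fzd8 (0.15) did not pass. The dim probe set Fzd5 1422937 rose (0.22, adjusted p = 0.0322), a call lost without mix replicate 2, 3 or 4. The dim Fzd6 1448662 fell, as its leading probe set did (-0.36). The Fzd9 fall lost its call without any 1 of the 4 mix arrays (-0.25 to -0.31, adjusted p = 0.0601 to 0.122).

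The counts were 10 of 20 higher and 4 lower, beside 33.9% and 21.4% of all probe sets, and 7 of 20 large, beside 18.6%. Probe sets of 1 gene were counted separately. The large ones belonged to Fzd1, Fzd2, Fzd3, Fzd4 and Fzd10, with every Fzd2 probe set among them. The median change was 0.35 for Frizzled probe sets and 0.08 for all. The Gapdh ratio of SS tumors (0.33 to 1.43) did not overlap that of the mix (0.04 to 0.07). The ratio and the group therefore cannot be told apart, and the following fit cannot separate them. With the Gapdh ratio as covariate, Fzd10 (2.50), Fzd1 (1.80), Fzd4 (1.49), Fzd2 (1.12) and Fzd7 (1.02) stayed past the threshold, Fzd3 passed it (0.73, adjusted p = 0.0444), and Fzd5 (-0.37), Fzd6 (-0.46) and Fzd9 (-0.32) did not (adjusted p = 0.12, 0.0876 and 0.145).

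Genes that act with the receptors differed in both directions, in fits without the Gapdh ratio. Of the 8 tested genes for Frizzled turnover and R-spondins, 7 were higher than in the mix and 1 lower. Lgr5, a receptor for R-spondins, averaged 9.49 in SS tumors and 4.27 in the mix (change 5.21, SE 0.160, adjusted p = 3.35e-15), and Rspo3, which through such receptors keeps Frizzleds on the surface, averaged 9.42 and 5.60 (change 3.82, SE 0.110). Rnf43, the ligase that removes Frizzleds, averaged 3.58 in SS tumors, next to the floor, and 4.65 in the mix. Of 10 co-receptors 8 were higher, led by Ror1 (8.28 in SS tumors and 4.78 in the mix), and 2 were lower, with Tspan12 at 5.44 in SS tumors and 8.86 in the mix, opposite to Fzd4. Of 19 ligands 8 were higher, led by Wnt16 (7.78 and 3.92) and Wnt11 (7.53 and 4.87), 2 were lower and 9 did not pass. Of 12 secreted inhibitors 6 were higher and 4 lower, and of 7 planar polarity genes 3 were higher and 3 lower. Axin2, the usual target gene of beta-catenin, averaged 8.41 in SS tumors and 6.35 in the mix (change 2.06, SE 0.169), and 4 of 7 target genes were higher and 2 lower. Against empty-vector eMCs the same tumors had 3 of 10 co-receptors higher and 5 lower (median -0.32), 6 of 19 ligands higher and 5 lower (median -0.04), 5 of 7 turnover and R-spondin genes higher and 1 lower, 2 of 12 secreted inhibitors higher and 5 lower, and 2 of 7 target genes higher and 1 lower. Named members were Lgr5, higher by 5.34, Rspo3 by 2.37 and Axin2 by 2.41, and Sfrp1, a secreted Wnt inhibitor, which was lower (4.39 in SS tumors and 6.23 in eMCs). In the same lists Wnt16 (3.57) and Ror1 (2.05) were also higher. The co-receptor Adgra2 (-3.00), the R-spondin Rspo2 (-2.11) and the target gene Myc (-2.15) were lower. The 2 comparisons share the SS tumors.

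SS214 tumors against SS tumors ask what miR-214 from the retrovirus adds to the fusion in tumors. The SS tumors include SS18, SS19 and SS23, in which the study reports raised miR-214. Of the leading probe sets 6 fell and 1 rose, none of them over 2-fold and none without overlap between the groups. Fzd7 averaged 8.32 ± 0.32 in SS214 tumors (n = 13) and 9.02 ± 0.37 in SS tumors (n = 12), a change of -0.70 (SE 0.134, limma, adjusted p = 0.000231). Fzd5 fell by 0.66 (SE 0.186, adjusted p = 0.00625), Fzd6 by 0.65 (SE 0.125, adjusted p = 0.000245), Fzd3 by 0.63 (SE 0.165, adjusted p = 0.0039) and Fzd2 by 0.57 (SE 0.129, adjusted p = 0.00106). Fzd8 fell by 0.27 and Fzd9 rose by 0.33. Fzd10 (-0.22), Fzd4 (-0.17) and Fzd1 (0.27) did not pass.

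Fzd3 was split between its probe sets, with 1421157 higher by 0.30 (adjusted p = 0.0356). Its probe sets 1449730 (0.27), 1420087 (0.10) and 1450135 (0.09) did not pass, so only the leading Fzd3 probe set fell. Fzd2 fell on 1418532 too (-0.72), while 1418534 did not pass (-0.23, adjusted p = 0.1). Of the Frizzled probe sets 2 of 20 were higher and 7 lower, beside 20.1% and 19.3% of all, and 0 of 20 were large, beside 2.5%. By limma 13 of 20 had an unadjusted p under 0.05, beside 18325 of 38527 over all probe sets. The median change was -0.14 for Frizzled probe sets and 0.02 for all.

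The RNA of the 2 tumor groups differed in the Gapdh ratio, as given above, and the ranges shared only the stretch from 0.33 to 0.48. With that ratio as covariate 1 of 20 probe sets passed: Fzd7, at -1.03 (SE 0.234, adjusted p = 0.014). Fzd10 came to -0.66 (adjusted p = 0.0507), Fzd3 to -0.93 (0.0572), Fzd5 to -1.03 (0.0588) and Fzd6 to -0.64 (0.0884), while Fzd2 came to only -0.15 (0.71), each in brackets an adjusted p. Over all probe sets the covariate left 834 higher and 1686 lower, against 7730 and 7429 without it. Outside that stretch the ratio and the group cannot be told apart. With SS214 tumors numbered 1 to 9 alone, Fzd9 lost its call (0.24, adjusted p = 0.105).

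**Figure D5:**
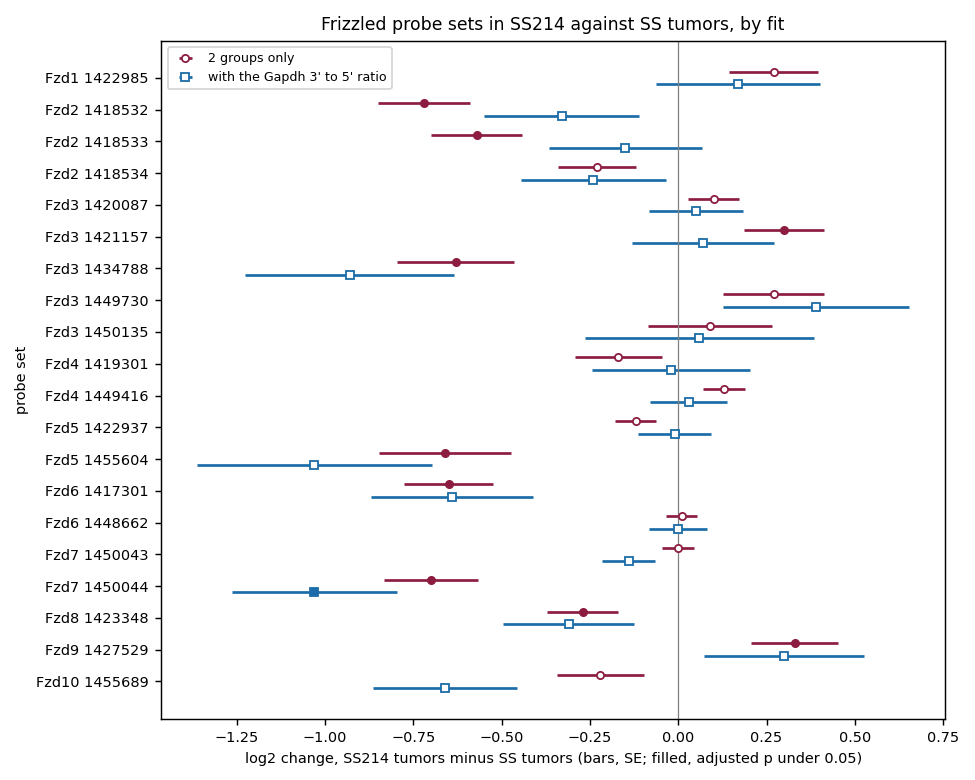
Log2 change of the 20 Frizzled probe sets (rows) between SS214 and SS tumors (horizontal axis, SS214 minus SS; bars are SE), in the fit of the 2 groups (circles) and with the Gapdh 3' to 5' ratio as covariate (squares), filled where the adjusted p was under 0.05. Only Fzd7 1450044 is filled in both, and the covariate fit has wider errors throughout.

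In the same comparison, fitted without the Gapdh ratio, all 7 planar polarity genes tested fell (median -0.47). Of 11 Dishevelled and beta-catenin genes 6 fell and 1 rose, and of 7 target genes 4 fell and 1 rose. Over all probe sets 20.1% were higher and 19.3% lower. For the genes in this paragraph no value with the ratio as covariate is given. Axin2 averaged 7.32 in SS214 tumors and 8.41 in SS tumors (change -1.09, SE 0.139, adjusted p = 3.31e-06), and Wnt16 averaged 6.67 and 7.78 (change -1.11). Of 6 macrophage markers 4 were higher in SS214 tumors (median 0.80). The study counted CD163-positive macrophages in tumor tissue and reports no difference by miR-214. That is a count of stained cells, whereas the markers are bulk RNA. Of the 3 sarcoma markers 2 were lower (median -0.39), and none of 8 skeletal muscle and none of 8 epithelial markers passed. The part of these markers in the Frizzled changes was not tested.

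Within tumor groups the leading level of each Frizzled gene was set against the mean endothelial, epithelial and skeletal muscle level, 30 relations in each group. Over the 13 SS214 tumors, 2 passed after adjustment: Fzd8 with the epithelial markers (r = 0.82, permutation p = 0.0008; rho = 0.76, permutation p = 0.0035; adjusted p = 0.024) and Fzd7 with the same markers (r = 0.76, permutation p = 0.0021; rho = 0.78, permutation p = 0.0023; adjusted p = 0.032). Without the 2 tumors farthest from the median marker level, r was 0.67 and 0.61. Over the 12 SS tumors none passed (lowest adjusted p = 0.052, Fzd2 with the epithelial markers, r = 0.81 and rho = 0.83, permutation p = 0.0017 each), 6 of 30 had an unadjusted p under 0.05, and Fzd7 with the epithelial markers had r = -0.71 and rho = -0.66 (permutation p = 0.0093 and 0.022, adjusted p = 0.082). That the sign of the Fzd7 relation differs between the tumor groups was not tested.

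In the lines miR-214 was compared with NC. In SS64 cells Fzd7 was lower, with 8.28, 8.21, 8.21 and 8.17 under miR-214 and 8.65, 8.63, 8.68 and 8.70 under NC, a change of -0.45 (SE 0.047, limma, adjusted p = 0.00011). Fzd8 gave 7.18, 7.21, 7.15 and 6.99 under miR-214 and 7.51, 7.35, 7.48 and 7.47 under NC, a change of -0.32 (SE 0.069, adjusted p = 0.0112). Fzd6 was the only Frizzled probe set to rise, with 7.83, 7.76, 7.84 and 7.78 under miR-214 and 7.23, 7.46, 7.49 and 7.53 under NC (0.38, SE 0.071, adjusted p = 0.00531). In these 3 genes no array of miR-214 overlapped the NC arrays.

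Fzd3 fell on probe set 1450135 (-0.65, SE 0.087, adjusted p = 0.00057) but its leading probe set changed by -0.04, and Fzd2 fell on 1418532 (-0.34, adjusted p = 0.00645) with its leading probe set at -0.25 (adjusted p = 0.0844). No label states a pairing of the SS64 arrays. Deviations of same-numbered arrays correlated at 0.221 to 0.346, though other numbers reached 0.381. With replicate numbers taken as a block, that leading Fzd2 probe set passed (adjusted p = 0.0191), as did Fzd3 1421157 (-0.29, adjusted p = 0.0114). Fzd5 fell by 0.36 (adjusted p = 0.0395), a call lost without SS64 miR-214 replicate 1, 3 or 4 or SS64 NC replicate 1, 2 or 4 (-0.32 to -0.36, adjusted p = 0.0846 to 0.106). The 1 of 19 higher and 5 lower stood beside 3.75% and 5.79% over all probe sets, and 0 of 19 were large, beside 0.193%. By limma 9 of 19 had an unadjusted p under 0.05, beside 7504 of 37365 over all probe sets. In 1 fit of all arrays all 6 calls were lost, leaving 0 higher and 0 lower (adjusted p = 0.32 for Fzd7, 0.565 for Fzd8, 0.778 for Fzd6, 0.269 for Fzd3 1450135, 0.881 for Fzd2 1418532 and 0.915 for Fzd5). Fzd1, Fzd4, Fzd9 and Fzd10 had changes of -0.09, 0.07, -0.05 and -0.05 and did not pass.

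In SS40 cells no Frizzled probe set passed by limma: 0 of 19 higher and 0 lower, beside 0.179% and 0.515%, and 0 large, beside 0.16%. At an unadjusted p under 0.05 there were 4, beside 3488 of all probe sets, and the test named in the study's methods gave 4 unadjusted (1 higher and 3 lower) and 0 after Benjamini-Hochberg adjustment. Fzd6 gave 9.06, 9.04, 8.98 and 7.45 under miR-214 and 8.60, 8.49, 8.74 and 8.68 under NC. With the array at 7.45, replicate 4, its change was 0.01 (SE 0.320), and without it 0.40 (SE 0.0726, adjusted p = 0.0281). Leading Fzd3 gave 5.85, 5.69, 5.62 and 5.52 under miR-214 and 6.05, 5.99, 5.89 and 6.05 under NC, with no overlap but an adjusted p of 0.323, or 0.286 without replicate 4. The dim Fzd6 probe set 1448662 did not overlap either (0.32, adjusted p = 0.328), and it passed in 1 fit of all arrays (adjusted p = 0.026). Of all probe sets 198 were higher and 495 lower without that array, against 67 and 193 with it.

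The response to miR-214 was compared between the lines by an interaction term. None of 20 Frizzled probe sets passed, beside 0.605% of all. An unadjusted p under 0.05 was found for 3 of 20, beside 3258 of 39010 over all probe sets. They were Fzd7 (difference of changes, SS64 minus SS40, -0.33, SE 0.084, adjusted p = 0.107), Fzd5 (-0.53, SE 0.139, adjusted p = 0.124) and Fzd3 (0.29, SE 0.117, adjusted p = 0.481). Without SS40 miR-214 replicate 4 the Fzd7 difference passed (-0.33, adjusted p = 0.0419). For Fzd8, which passed in SS64 cells and not in SS40 cells, the difference between the lines did not pass (-0.26, SE 0.212, adjusted p = 0.824). Without SS40 miR-214 replicate 4 the Fzd8 difference was -0.45 (SE 0.133, adjusted p = 0.141), which did not pass either. The Fzd8 change in SS40 cells was then 0.13 in place of -0.06.

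The lines themselves differed more than either did with miR-214. In SS64 NC against SS40 NC cells Fzd3 averaged 7.83 ± 0.08 and 6.00 ± 0.07 (SD, n = 4 each), a change of 1.83 (SE 0.074, limma, adjusted p = 5.83e-09), and 1449730, 1421157 and 1450135 were higher by 1.78, 1.56 and 1.10. Fzd8 was higher by 1.04 (SE 0.101), Fzd5 by 0.72 and Fzd7 by 0.64. Fzd2 averaged 7.60 in SS64 NC and 9.05 in SS40 NC (-1.45, SE 0.128), Fzd6 7.43 and 8.63 (-1.20, SE 0.083), and Fzd1 was lower by 0.45 on the log2 scale. Fzd10 was lower with 5.18, 5.05, 5.29 and 5.00 in SS64 NC and 5.52, 5.43, 5.36 and 5.40 in SS40 NC (-0.30, adjusted p = 0.023), a call lost without SS64 NC replicate 2 or 4 or SS40 NC replicate 1 (-0.27, -0.25 and -0.27, adjusted p = 0.0667, 0.0669 and 0.0542). Fzd4 (-0.10) and Fzd9 (-0.15) did not pass.

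Here 7 of 19 probe sets were higher and 7 lower, beside 18.8% and 20.8%, and 8 of 19 were large, beside 9.71%. Probe sets of 1 gene were counted separately, and the large ones belonged to Fzd2, Fzd3, Fzd6 and Fzd8 alone. Of the large probe sets 5 were higher, against 3 with quantile normalization, where Fzd8 (0.91) and Fzd3 1450135 (0.97) came to under 2-fold. Wnt ligands moved 1 way, with 9 of 19 lower in SS64 NC and none higher, Wnt5a at 4.04 in SS64 NC and 7.95 in SS40 NC. Ror2, its co-receptor, averaged 3.71 in SS64 NC, near the floor, and 7.52 in SS40 NC, and the inhibitor Sfrp2 averaged 4.56 and 10.63. Each group is 1 line, so these are differences between SS64 and SS40 and not between kinds of line.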

How the data were processed

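The deposited values are intensities on a linear scale, 1 value for each of 45141 probe sets on 53 arrays. The authors' summary step is not settled: the submitters' processing notes name MAS5 and the study's methods name GeneSpring, with no version used here. All 53 columns were matched to samples, and 0 pairs of arrays were identical. Control probe sets (104) were left out. The floor was 11.7, found as the 20th percentile of each array and then the median of those; lower values were set to 11.7 before log2 was taken. A probe set was tested where at least 4 arrays compared lay above that floor.

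Each comparison was fitted on its own groups with limma 3.58.1 (lmFit and eBayes with trend; R 4.3.3), adjusted by Benjamini-Hochberg over all probe sets tested, after a check on simulated data. Correlations in tumors used 100000 permutations (two-sided; scipy 1.17.1). Their number of arrays limits the precision. Members and gene lists were chosen with earlier results of these data known. Named genes were all Frizzled probe sets and up to 4 over 2-fold members of each pathway list. Alternatives were quantile normalization, other floors and filters, 1 fit of all arrays, leaving out arrays, the methods' t-test, the Gapdh ratio as covariate, and replicate numbers as a block. Same-numbered arrays pair by the rule that every pair's deviations correlate over 0.1, which held in SS64 (0.221 to 0.346, though other numbers reached 0.381) and not in eMCs (0.0113 to 0.153) or SS40 (-0.281 to 0.464).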

Additional observations from a re-analysis of the deposited data

Results flagged for a closer look

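Among 134 sets of 4 arrays of 1 group and 1 Frizzled probe set, 12 held an array far from the other 3 by Dixon's criterion, and chance gives about 5%. SS40 miR-214 replicate 4 was that array 4 times, with Fzd2 1418532 at 7.10 (nearest other array 8.67), Fzd6 1417301 at 7.45 (8.98), Fzd8 at 5.78 (6.50) and Fzd7 1450043 at 4.85 (4.37). In SS40 NC they were Fzd2 1418533 at 9.50 on replicate 1, Fzd6 1448662 at 4.20 and Fzd8 at 6.12 on replicate 2, and Fzd5 1455604 at 5.48 on replicate 4. In eMCs with SS18-SSX1 they were Fzd2 1418533 at 8.59 on replicate 3 and Fzd7 1450044 at 9.34 on replicate 4. The others were Fzd5 1422937 at 4.23 on eMC empty vector replicate 2, and Fzd10 at 4.90 on replicate 4 of the mix. No cause was tested.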

How the results depend on the processing

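Over single probe sets, 2152 results under alternatives kept direction and side of the threshold, 92 lost the call, 26 gained it and 40 changed sign, and the cause was not tested. Frizzled probe sets over 2-fold in eMCs numbered 1 to 2 as arrays were left out in turn (2 without eMC empty vector replicate 3), and in SS214 against SS tumors 1 with the Gapdh ratio as covariate. With quantile normalization those higher by over 2-fold numbered 2 in SS tumors against eMCs (4 otherwise) and 3 in SS64 NC against SS40 NC (5 otherwise). For the response differing between the lines, 1 passed with no filter, and 0 to 1 leaving out arrays (1 without SS40 miR-214 replicate 4).

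Signs turned in eMCs for Fzd6 1448662 (0.02, quantile), in SS tumors against eMCs for Fzd3 1421157 (0.23, covariate), Fzd4 1449416 (0.02, quantile and covariate) and Fzd7 1450044 (0.14, covariate), and between the lines for Fzd3 1421157 (0.03, quantile). Leaving out arrays gave ranges across 0: Fzd1 in eMCs -0.06 to 0.05; in SS40 Fzd2 1418533 -0.01 to 0.23, Fzd6 1417301 -0.14 to 0.40 and Fzd8 -0.16 to 0.13; in SS64 Fzd1 -0.19 to 0.03, Fzd5 1422937 -0.02 to 0.04 and Fzd9 -0.12 to 0.02; in SS64 NC against SS40 NC Fzd5 1422937 -0.01 to 0.07. For the difference between the lines they were -0.33 to 0.25 (Fzd2 1418532), -0.09 to 0.07 (Fzd3 1420087), -0.16 to 0.05 (1421157), -0.11 to 0.07 (1449730), -0.18 to 0.03 (1450135), -0.03 to 0.51 (Fzd6 1417301), -0.04 to 0.17 (Fzd9) and -0.17 to 0.10 (Fzd10).

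Over all probe sets, 1 fit of all arrays gave 2101 higher and 1835 lower in eMCs (8394 and 6816 otherwise), 163 and 404 in SS40, 195 and 408 in SS64 (1401 and 2165 otherwise), and 68 and 83 between the lines. Of the Frizzled probe sets that fit called 3 higher and 2 lower in eMCs (8 and 6 otherwise), 0 and 0 in SS64 (1 and 5 otherwise) and 1 and 0 in SS40 (0 and 0 otherwise). With the replicate block SS40 had 16 and 57 (67 and 193 without), and Frizzled probe sets in SS64 numbered 1 higher and 7 lower. The methods' t-test gave 1378 and 2106 in SS40 and 3025 and 4202 in SS64 unadjusted, and 43 and 127 in SS40 after adjustment. No scaling moved the median over all probe sets by 0.1. Levels near the floor limit Fzd4 1449416, at the floor on 19 arrays.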

Other observations

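Fzd10os, a transcript from the strand opposite Fzd10 and no member of the family, had 2 probe sets. Probe set 1441338 averaged 6.29 ± 0.18 in SS tumors (n = 12) and 5.49 ± 0.11 in the mix (n = 4), a change of 0.80 (limma, adjusted p = 5.71e-06), and 1444013 was higher by 0.52 (adjusted p = 6.55e-05). Against empty-vector eMCs, where Fzd10 rose by 1.26, the Fzd10os changes were 0.05 (adjusted p = 0.735) and 0.04 (adjusted p = 0.681). The difference between Fzd10 and Fzd10os was not tested.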
